A study of Arabidopsis thaliana with 72 samples.

Results

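A group of 10 genes of abscisic acid (ABA) metabolism and response were followed in shoots and roots of Arabidopsis thaliana seedlings given t-chalcone. They were chosen by name, from a list of 10 identifiers, out of 22884 genes in the deposited table: NCED3 (AT3G14440), CYP707A1 (AT4G19230), CYP707A3 (AT5G45340), HAI1 (AT5G59220), HAI2 (AT1G07430), ABI1 (AT4G26080), ABF1 (AT1G49720), ABF3 (AT4G34000), RAB18 (AT5G66400) and HB-12 (AT3G61890). All 10 were in the table. In roots, NCED3 and HAI1 stood 3.86 and 3.81 times higher with t-chalcone than with ethanol at 1 h, and limma, the main test, called 6 of the 9 genes tested higher at 3 h, where 10.3% of all genes were. That count was 3 without 1 shallow EtOH library and 2 with array weights or with only the 2 groups compared. It fell less with TMM scaling or DESeq2 and did not change with edgeR. Without all libraries under 0.5 M it rose, where 8.54% of all genes were called. Shares of all genes for the counts of 3 and 2 are not given. In shoots limma over all libraries called no member before 12 h, HB-12 lower at 12 h, and RAB18 and CYP707A1 higher at 24 h. The HB-12 call was lost without 1 shallow EtOH library. On recovered whole numbers edgeR called NCED3 and ABF1 lower in shoots at 6 h and neither RAB18 nor CYP707A1 at 24 h.

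ABA is the hormone through which plants restrain water loss, growth and germination, and it is made from carotenoids. Its receptors (PYR and PYL proteins) bind the hormone and then inhibit the clade A protein phosphatases. Those phosphatases otherwise hold the SnRK2 kinases inactive, and freed kinases activate bZIP transcription factors that bind promoters of target genes such as dehydrins.

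Seedlings on agar, 14 days old and kept at 16 h light and 8 h dark, received 8 mL of 21 µM t-chalcone per plate, a plant compound with growth-inhibiting activity, when lights had been on for 7 h. Control seedlings received 0.1% ethanol (EtOH). Shoots and roots were taken at 0 h and 1, 3, 6, 12 and 24 h later, which gave 22 groups of 3 libraries. The labels name no accession or genotype, and they do not say that the libraries came from separate cultures, and replicate spread, on which all p-values rest, may therefore be technical. The t-chalcone series has no 0 h samples. Untreated seedlings at 0 h had the same values as EtOH at 0 h in every gene, and each such pair entered once.

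Values are deposited normalised counts, called deposited units below, and levels are means ± SD (n = 3). Differences are on the log2(value + 1) scale, t-chalcone minus EtOH, with ± the standard error from limma, and a gene was called at a Benjamini-Hochberg adjusted p under 0.05 over all genes tested. Whole numbers recovered from these values gave library totals of 0.128 to 22.5 M (mega) in roots, median 10.3 M, and 0.246 to 26.0 M in shoots, median 14.5 M. Of the 66 libraries 5 were under 0.5 M, namely EtOH replicate 1 at 0 h and at 3 h in roots, EtOH replicate 2 at 12 h and replicate 3 at 24 h in shoots, and t-chalcone replicate 2 at 24 h in shoots. The lowest value of any gene lay between 17.4 and 40.5 units in these 5 libraries and at 6.58 or below in the others, so that a value at that floor cannot be told from no reads. The summed level of 6 green-tissue markers ranged over 107498 to 369311 units among shoots and 609 to 3567 among roots, and that of 10 root markers over 2646 to 7172 in roots and 58.9 to 422 in shoots, which matched the tissue labels. In whole shoots and roots, fewer cells of a type and less RNA per cell cannot be told apart.

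Because ABA-response bZIP factors bind promoter motifs built on the letters ACGTG, the 300 bases before each member's annotated start were searched for it on both strands. The sequences and coordinates are from RefSeq's TAIR10.1 assembly and its annotation, whereas the deposited values were made against TAIR10. ACGTG occurred in 8 of the 10 members and in 26.6% of 22707 promoters of the same length. At least 2 separate sites, with overlapping matches such as the palindrome CACGTG counted as 1, occurred in 3 of the 10 members (HAI2, ABF1 and RAB18) and in 6.35% of promoters. The longer motif ACGTGTC, which contains ACGTG, was found in CYP707A1, CYP707A3, ABI1 and RAB18 and in 4.45% of all promoters. ACGTGGC was found in HAI2 alone among the members (4.1% of all promoters), and the palindrome CACGTG in CYP707A1 and CYP707A3 (7.83%). Neither NCED3 nor HAI1 held ACGTG in this window. A match describes the letters only, and its absence says nothing of binding. The promoters below are printed 5′ to 3′ because they carry the contrast within the group, with ACGTG and its reverse complement in capitals: the pair of breakdown genes, the target RAB18, and HAI1, which moved with t-chalcone but holds no copy. They lie at chr4:10520959-10521258 on the plus strand (CYP707A1) and, on the minus strand, at chr5:18371022-18371321 (CYP707A3), chr5:26519448-26519747 (RAB18, whose window overlaps the neighbouring gene AT5G66410) and chr5:23896940-23897239 (HAI1).
CYP707A1: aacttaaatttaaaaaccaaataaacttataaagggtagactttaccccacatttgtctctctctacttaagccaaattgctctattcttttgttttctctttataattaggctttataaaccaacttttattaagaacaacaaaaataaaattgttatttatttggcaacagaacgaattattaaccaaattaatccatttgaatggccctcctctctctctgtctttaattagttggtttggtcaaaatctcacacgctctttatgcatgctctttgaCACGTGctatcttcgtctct
CYP707A3: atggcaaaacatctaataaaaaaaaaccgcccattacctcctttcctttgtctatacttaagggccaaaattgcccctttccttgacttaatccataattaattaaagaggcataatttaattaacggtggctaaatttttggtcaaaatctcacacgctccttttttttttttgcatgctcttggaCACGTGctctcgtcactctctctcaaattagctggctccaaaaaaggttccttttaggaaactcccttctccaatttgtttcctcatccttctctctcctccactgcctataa
RAB18: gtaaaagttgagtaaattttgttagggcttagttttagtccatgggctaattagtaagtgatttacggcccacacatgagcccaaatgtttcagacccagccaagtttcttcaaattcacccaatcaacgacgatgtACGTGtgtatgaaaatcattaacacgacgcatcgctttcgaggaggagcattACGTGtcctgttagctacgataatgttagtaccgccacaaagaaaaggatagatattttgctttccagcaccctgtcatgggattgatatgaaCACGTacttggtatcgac
HAI1: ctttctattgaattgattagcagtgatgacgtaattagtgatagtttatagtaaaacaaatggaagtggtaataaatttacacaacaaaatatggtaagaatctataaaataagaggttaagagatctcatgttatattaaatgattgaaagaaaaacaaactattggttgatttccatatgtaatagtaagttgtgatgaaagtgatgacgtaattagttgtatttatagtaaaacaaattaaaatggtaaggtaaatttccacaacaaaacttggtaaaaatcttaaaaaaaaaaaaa
The promoters of CYP707A1 and CYP707A3 share an unbroken run of 23 bases, tttggtcaaaatctcacacgctc, which begins 61 bases before the start of CYP707A1 and 162 bases before that of CYP707A3. The run lies upstream of CACGTG in both. The median of the longest run that a promoter shared with that of CYP707A1 was 9 bases over 22706 promoters, and no promoter other than that of CYP707A3 shared one as long as 23.

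In EtOH seedlings most members changed over time, which sets the level against which t-chalcone is read. The F test of limma called 7 of 9 members in roots, where 35.8% of all genes were called, and 9 of 10 in shoots, where 41.3% were. CYP707A1 (adjusted p = 0.141) and RAB18 (0.0963) did not pass in roots, nor HAI2 (0.254) in shoots. Those 3 results turned on single libraries. CYP707A1 was called without the shallow EtOH replicate 1 at 0 h (limma adjusted p = 9.63e-10), RAB18 without the shallow EtOH replicate 1 at 3 h (limma adjusted p = 0.0026) or without replicate 3 there, and HAI2 without the shallow EtOH replicate 2 at 12 h (limma adjusted p = 0.0368). All 3 were called by edgeR and with array weights, CYP707A1 by DESeq2 too, and CYP707A1 and RAB18 without libraries under 0.5 M. Means were highest at 0 h in shoots for NCED3, CYP707A1, CYP707A3, HAI1, ABF3 and RAB18. NCED3 in shoots fell from 79.3 ± 10.95 units at 0 h to 21.1 ± 2.02 at 24 h, and its level at 0 h was the only one whose libraries did not overlap those of the next time in the order. HAI1 in shoots fell from 68.3 ± 15.5 units at 0 h to 4.42 ± 1.63 at 6 h. CYP707A3 had the widest range of the 10 in shoots, from 1130 ± 707 units at 0 h to 31.3 ± 9.25 at 24 h. In roots it went from 678 ± 168 units at 0 h to 76.5 ± 6.88 at 6 h.

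The bZIP genes ABF1 and ABF3 followed different courses in EtOH. ABF1 was at 353 ± 55.9 units in roots at 1 h and at 26.7 ± 2.35 at 12 h, a fall from 0 h by 3.56 ± 0.21 on the log2 scale (limma adjusted p = 6.02e-13). ABF3 in roots was at 767 ± 30.3 units at 12 h and 887 ± 73.3 at 24 h, above 0 h by 1.36 ± 0.46 and 1.56 ± 0.46 on the log2 scale (limma adjusted p = 0.0409 and 0.0155). Over the means of all 22 groups, those with t-chalcone included, their Pearson correlation was -0.48, the lowest of any pair of members. The highest was 0.76, between CYP707A3 and RAB18, followed by 0.71 between NCED3 and HAI1. These correlations used group means on the log2(value + 1) scale, less the mean of their tissue. The groups share tissue and time, and the correlations are descriptions.

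Of the 10 members 6 differed between roots and shoots in EtOH, averaged over the 6 times, where 67.6% of all genes did, 34.7% higher in roots and 32.9% lower. RAB18, a dehydrin made under drought and ABA, had a mean of 8.06 units over the root groups and 111 over the shoot groups, a difference of -3.73 ± 0.25 on the log2 scale (limma adjusted p = 2.11e-19). In roots RAB18 was at the floor of the library in 12 of 33 libraries. CYP707A1 was higher in roots (99.0 against 33.6 units, 1.46 ± 0.17 on the log2 scale) and so was HAI1 (48.2 against 19.4 units, 1.67 ± 0.20). ABF3 was also higher in roots, by 0.61 ± 0.21, whereas NCED3 and HB-12 were lower in roots, with differences of -0.56 ± 0.15 and -1.18 ± 0.13.

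**Figure D1:**
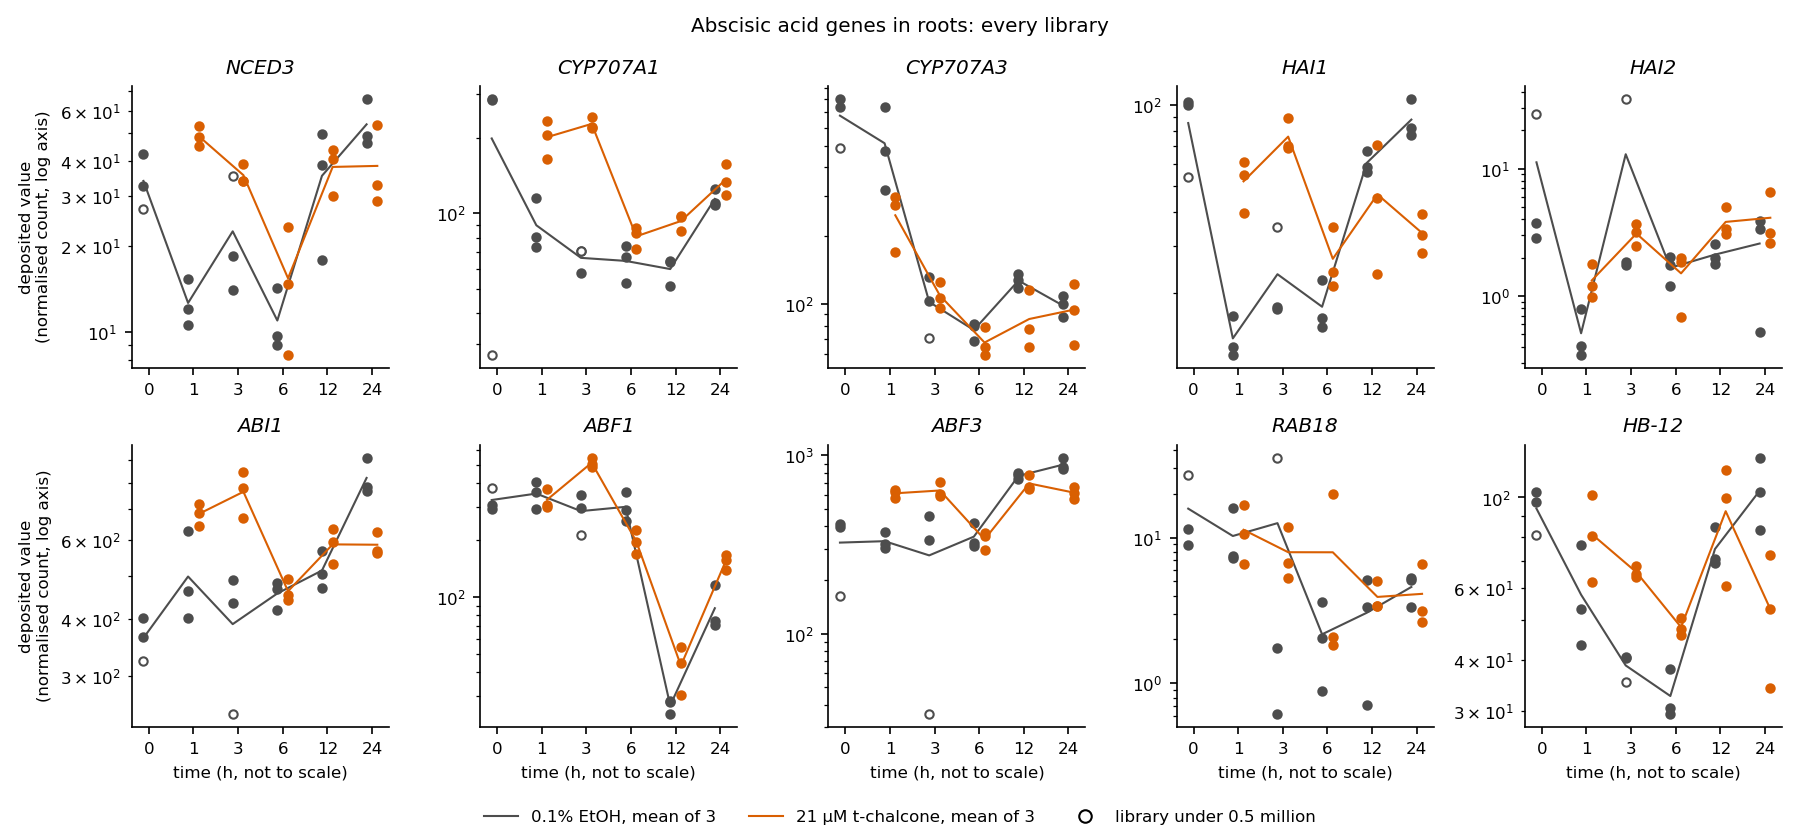
Deposited normalised counts (log axis) of the 10 genes in every root library at 0 to 24 h, with points for libraries, lines for means of 3, grey for 0.1% EtOH and orange for 21 µM t-chalcone, and open circles for libraries under 0.5 M. NCED3 and HAI1 in t-chalcone stand apart from EtOH at 1 h, and at 3 h the 3 CYP707A1 libraries with t-chalcone lie between 219 and 244 units.

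NCED3 encodes the dioxygenase that cleaves carotenoids in the limiting step of stress-induced ABA synthesis. In roots at 1 h it was at 15.3, 10.6 and 12.0 units in the EtOH libraries and at 48.3, 45.2 and 52.8 in the t-chalcone libraries. All 3 t-chalcone libraries were far above every EtOH library. The difference was 1.88 ± 0.35 (limma adjusted p = 0.000534) and was called in each of the 6 fits that left out 1 library. In the same roots EtOH itself was below 0 h by 1.35 ± 0.35 on the log2 scale (limma adjusted p = 0.00496), from 34.0 ± 7.64 units, so the t-chalcone libraries were above the level at 0 h and EtOH below it. At 0 h the shallow EtOH library was at its floor of 27.0 units, and the mean without it was 37.4. The difference of t-chalcone from 0 h was not tested.

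At 3 h the root EtOH libraries held 35.3, 14.0 and 18.4 units of NCED3 and the t-chalcone libraries 38.8, 33.9 and 34.0. The first EtOH value was the floor of a library under 0.5 M, and the groups overlapped through it alone. The difference of 0.73 ± 0.35 did not pass (limma adjusted p = 0.153), and without libraries under 0.5 M it was 1.09 ± 0.35 (limma adjusted p = 0.0498). From 6 h on the root groups overlapped at every time, with EtOH at 10.97 ± 2.84, 35.4 ± 16.1 and 53.7 ± 10.7 units and t-chalcone at 15.4 ± 7.56, 38.0 ± 7.12 and 38.3 ± 13.2 units at 6, 12 and 24 h.

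In shoots at 6 h NCED3 was at 41.6, 37.3 and 43.4 units in EtOH and at 19.2, 15.6 and 20.9 in t-chalcone, so the groups did not overlap. The difference of -1.10 ± 0.37 did not pass over all libraries (limma adjusted p = 0.179). Without the libraries under 0.5 M, none of which is in this comparison, it did (limma adjusted p = 0.0216), as it did by edgeR and DESeq2 on the recovered whole numbers (adjusted p = 0.0038 and 0.0175). The t-chalcone effect on NCED3 differed between roots and shoots (F test of the differences at 5 times, limma adjusted p = 0.0225, with 1.75% of all genes called), and between times in roots (limma adjusted p = 0.0171).

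CYP707A1 and CYP707A3 encode cytochrome P450 enzymes that hydroxylate ABA and start its breakdown. CYP707A1 in roots at 3 h was at 70.6, 57.9 and 70.7 units in EtOH and at 219, 244 and 221 in t-chalcone. The t-chalcone libraries lay far above all EtOH libraries, 3.43 times on average, with a difference of 1.77 ± 0.44 (limma adjusted p = 0.00789) that was called in each fit that left out 1 of the 6 libraries. At 1 h the values were 115, 80.2 and 73.1 in EtOH and 235, 165 and 206 in t-chalcone, again without overlap, yet 1.18 ± 0.44 did not pass (limma adjusted p = 0.168). The spread of CYP707A1 over all root libraries includes EtOH at 0 h, where 1 library under 0.5 M was at its floor of 27.0 units and the others at 287 and 284. Without libraries under 0.5 M the difference at 1 h was 1.18 ± 0.16 (limma adjusted p = 7.73e-06).

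CYP707A3 was lower at 1 h in roots. It was at 742, 474 and 319 units in EtOH and at 272, 296 and 169 in t-chalcone, with every t-chalcone library below every EtOH library. The difference was -1.01 ± 0.27 (limma adjusted p = 0.0236), and the call was lost without EtOH replicate 1 (-0.70, 0.284), EtOH replicate 2 (-1.02, 0.0741) or t-chalcone replicate 3 (-0.76, 0.197). At 3 h CYP707A3 in roots was at 102 ± 30.5 units in EtOH and 109 ± 14.8 in t-chalcone, and did not pass (0.13 ± 0.27, limma adjusted p = 0.774). Thus the pair that shares the promoter run differed in what passed the test at these times, and the difference between the genes was not tested. In shoots at 1 h CYP707A3 was at 994, 847 and 153 units in EtOH and at 116, 212 and 169 in t-chalcone, and the groups overlapped through EtOH replicate 3.

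In shoots CYP707A1 was called at 24 h only. Its EtOH libraries were at 24.9, 7.72 and 21.0 units and its t-chalcone libraries at 39.3, 69.6 and 29.3. The groups did not overlap. EtOH replicate 3 and t-chalcone replicate 2 are libraries under 0.5 M, the first at its floor, and 69.6 units there rested on a recovered count of 4. The difference of 1.37 ± 0.35 lay at the threshold (limma adjusted p = 0.04996). The call was lost without EtOH replicate 2 (0.89, adjusted p = 0.301), EtOH replicate 3 (1.55, 0.0556), t-chalcone replicate 1 (1.44, 0.115) or t-chalcone replicate 2 (1.03, 0.188).

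HAI1 and HAI2 encode clade A phosphatases induced strongly by ABA, and ABI1 encodes a founding member of that clade, all of which restrain ABA signalling. HAI1 in roots at 1 h was at 11.8, 12.6 and 16.5 units in EtOH and at 39.8, 54.7 and 61.4 in t-chalcone. At 3 h it was at 35.3, 17.5 and 17.8 in EtOH and at 89.2, 69.1 and 70.0 in t-chalcone, where 35.3 is again the floor of the shallow EtOH library. The groups did not overlap at either time. The differences were 1.85 ± 0.31 (limma adjusted p = 0.000158) and 1.72 ± 0.31 (limma adjusted p = 0.000378), and both were called in all fits that left out 1 library.

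HAI1 stood below EtOH in roots at 24 h. EtOH libraries were at 81.7, 77.2 and 105 units and t-chalcone libraries at 32.9, 28.2 and 39.3, a difference of -1.37 ± 0.31 (limma adjusted p = 0.0205). All 3 t-chalcone libraries were below all EtOH libraries. Those 3 t-chalcone libraries carry an S number in their description where the EtOH libraries at 24 h carry an index sequence, so that whatever the S number marks and t-chalcone cannot be told apart there. Library totals were split in the same way, with 0.866, 1.83 and 2.19 M in t-chalcone and 14.3, 11.6 and 9.30 M in EtOH. Depth and t-chalcone can therefore not be told apart at 24 h in roots either. With the S number as a batch term no member was called at 24 h in roots. The call was also lost without EtOH replicate 1 or 3 (adjusted p = 0.0548 and 0.162) or t-chalcone replicate 1 or 2 (0.0562 and 0.0709). The effect on HAI1 in roots differed between times, from higher at 1 and 3 h to lower at 24 h (F test, limma adjusted p = 1.33e-05, where 8.21% of all genes were called).

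ABI1 in roots at 3 h was at 247, 435 and 490 units in EtOH and at 846, 780 and 671 in t-chalcone. The t-chalcone libraries stood above every EtOH library, of which the lowest was the shallow one. The difference was 1.02 ± 0.18 (limma adjusted p = 0.000181), and 0.72 ± 0.14 without libraries under 0.5 M (limma adjusted p = 0.000723). At 24 h ABI1 was at 821 ± 77.5 units in EtOH and 585 ± 34.97 in t-chalcone, without overlap, and did not pass (-0.49 ± 0.18, limma adjusted p = 0.138). ABI1 overlaps a gene on the opposite strand, as do ABF1, ABF3 and RAB18, and the counting is not stated to use strand. Their reads in the shared stretch can therefore not be told from those of the partner. The length of the overlap was not measured.

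HAI2 was near the lowest value in most libraries. Its level outside the 5 shallow libraries ran from 0.340 to 25.4 units in shoots and from 0.341 to 6.58 units in roots. It was at the floor in 15 root libraries and 14 shoot libraries, did not pass the filter on low values in roots and was not tested there, and was not called by limma over all libraries in shoots, for t-chalcone or over time. In shoots HAI1 was at 4.78, 6.00 and 3.07 units in EtOH and at 22.7, 19.2 and 4.91 in t-chalcone at 3 h, overlapping through t-chalcone replicate 3 (1.37 ± 0.60, limma adjusted p = 0.89).

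ABF1 and ABF3 encode bZIP factors that bind the ACGTG-containing elements of ABA-responsive promoters. In roots at 3 h ABF1 was at 212, 296 and 347 units in EtOH and at 546, 487 and 507 in t-chalcone. ABF3 was at 35.3, 333 and 455 units in EtOH and at 705, 606 and 595 in t-chalcone. Both groups stood clear of their controls. ABF1 differed by 0.88 ± 0.21 (limma adjusted p = 0.00494) and ABF3 by 1.84 ± 0.46 (limma adjusted p = 0.00839). The ABF3 value of 35.3 was the floor of the shallow EtOH library, and without libraries under 0.5 M ABF3 differed by 0.70 ± 0.14 (limma adjusted p = 0.000941) and ABF1 by 0.68 ± 0.20 (limma adjusted p = 0.0332). When that EtOH library alone was left out, ABF1 (0.68, adjusted p = 0.0601) and ABF3 (0.70, adjusted p = 0.0786) were not called.

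At 24 h in roots ABF1 was at 71.4, 75.1 and 115 units in EtOH and at 138, 157 and 167 in t-chalcone, all t-chalcone libraries again above, with a difference of 0.84 ± 0.21 (limma adjusted p = 0.0293). The S numbers and low totals of these t-chalcone libraries apply here too. The call was lost without EtOH replicate 1 (0.72, 0.124) or 2 (0.75, 0.112), or t-chalcone replicate 2 (0.83, 0.0740) or 3 (0.78, 0.0759). In shoots at 6 h ABF1 was at 424, 399 and 399 units in EtOH and at 223, 200 and 274 in t-chalcone, without overlap, and was not called over all libraries (-0.82 ± 0.46, limma adjusted p = 0.701). Without libraries under 0.5 M, none of them at 6 h, the difference was the same and the standard error 0.13 (limma adjusted p = 3.19e-05). The shallow EtOH library at 12 h held 364 units of ABF1 where the other EtOH libraries held 45.5 and 36.0.

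RAB18 and HB-12, a homeodomain-leucine zipper factor induced by ABA and drought, are outputs of the pathway. RAB18 in shoots at 24 h was at 40.7, 15.4 and 21.0 units in EtOH and at 88.5, 87.0 and 90.7 in t-chalcone. Every t-chalcone library was above the highest EtOH library. The value of 87.0 came from a library under 0.5 M and rests on a recovered count of 5, and the EtOH value of 21.0 is the floor of another such library. The difference was 1.86 ± 0.36 (limma adjusted p = 0.00593), 1.79 ± 0.43 without libraries under 0.5 M (limma adjusted p = 0.00762), and not called without EtOH replicate 2 (1.57, adjusted p = 0.0678). DESeq2 called it (1.55, adjusted p = 0.0354) and edgeR did not (1.48, adjusted p = 0.0904), nor limma without libraries with an S number (1.57, adjusted p = 0.157). At 12 h it was at 20.8, 40.5 and 31.7 in EtOH and at 112, 46.3 and 59.4 in t-chalcone, also without overlap, with 1.15 ± 0.36 (limma adjusted p = 0.113), where 40.5 is the floor of the shallow EtOH library. Without libraries under 0.5 M RAB18 at 12 h was higher by 1.36 ± 0.39 (limma adjusted p = 0.0453).

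In roots at 3 h RAB18 was at 35.3, 1.75 and 0.615 units in EtOH, the first at the floor of the shallow library, and at 6.70, 11.8 and 5.26 in t-chalcone. It did not pass (0.65 ± 0.79, limma adjusted p = 0.602), and stood at 2.01 ± 0.64 without libraries under 0.5 M (limma adjusted p = 0.0462). The EtOH values each rest on a recovered count of 1, and the t-chalcone values on 19, 30 and 13.

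HB-12 in roots at 3 h was at 35.3, 40.3 and 40.6 units in EtOH and at 64.9, 67.9 and 63.9 in t-chalcone. The groups did not overlap, and the difference of 0.75 ± 0.25 passed (limma adjusted p = 0.0428). The call was lost without EtOH replicate 1 (0.68, adjusted p = 0.185) and without t-chalcone replicate 1, 2 or 3 (0.0985, 0.120 and 0.0996). At 24 h in roots it was at 83.4, 103 and 125 units in EtOH and at 72.4, 53.3 and 34.0 in t-chalcone. The difference of -0.995 ± 0.25 passed (limma adjusted p = 0.0316), with the same tie to S numbers and to low library totals. This call was lost without EtOH replicate 2 or 3 (adjusted p = 0.0847 and 0.256) or t-chalcone replicate 2 or 3 (0.0628 and 0.141).

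HB-12 in shoots at 12 h was the one member lower there. It was at 349, 1863 and 312 units in EtOH and at 206, 160 and 200 in t-chalcone, and the value of 1863 came from the EtOH library under 0.5 M. Every t-chalcone library was below every EtOH library. The difference was -1.64 ± 0.38 (limma adjusted p = 0.0363), and -0.81 ± 0.20 without libraries under 0.5 M (limma adjusted p = 0.0184). The call was lost when the EtOH library alone was left out (adjusted p = 0.0545) and without t-chalcone replicate 1, 2 or 3 (0.138, 0.180 and 0.0898). The effect on HB-12 differed between tissues (F test, limma adjusted p = 0.0134).

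**Figure D2:**
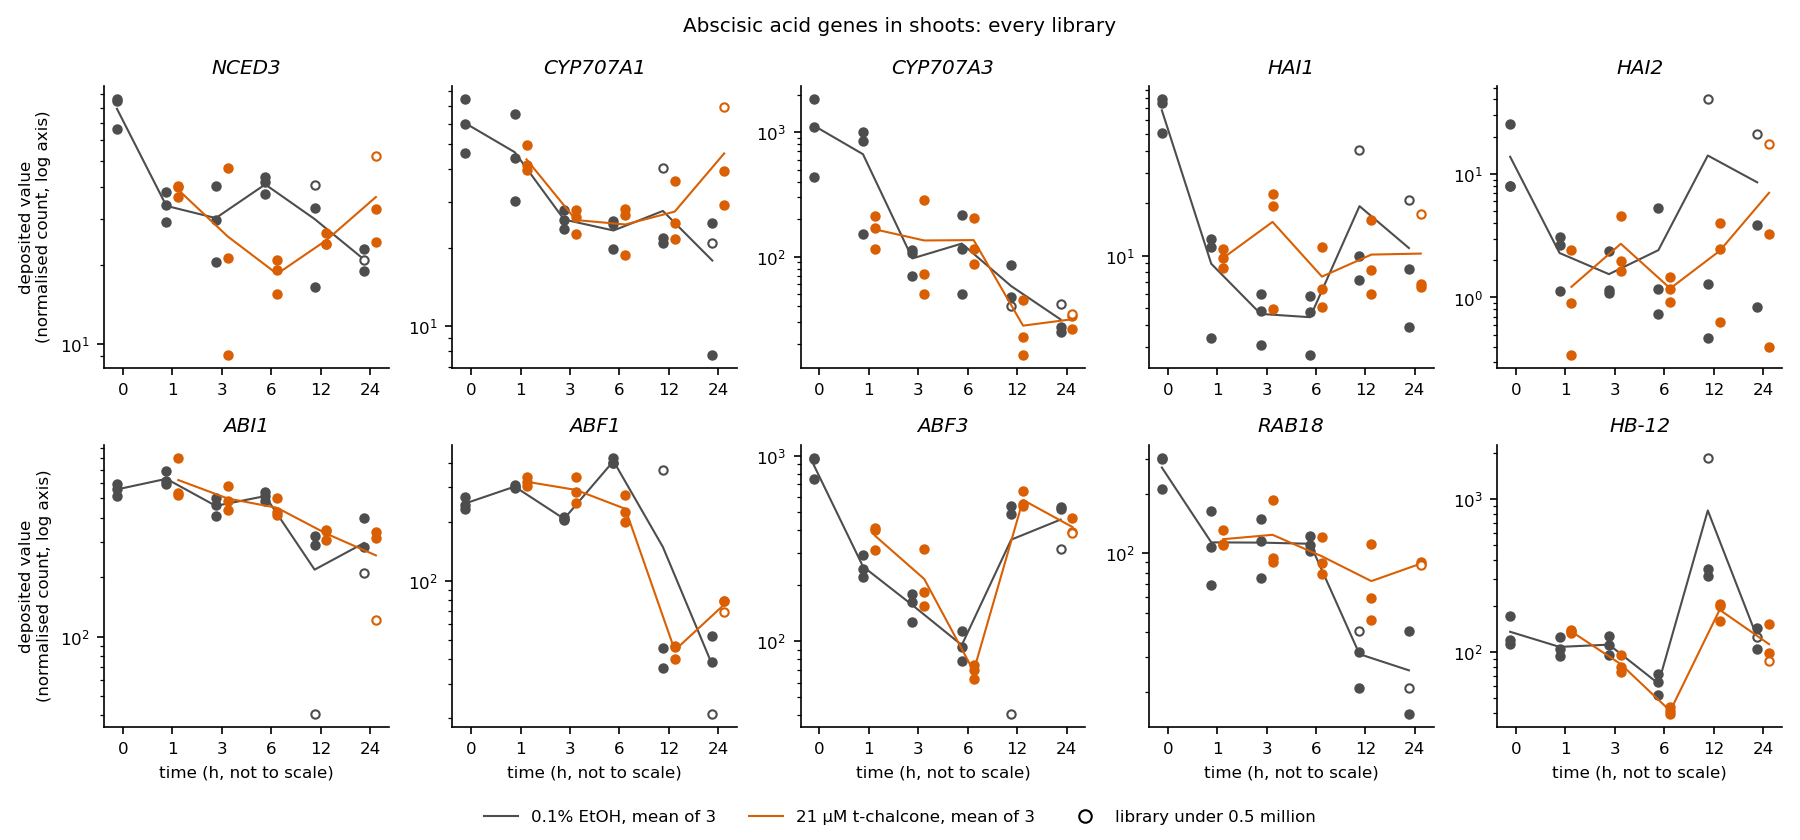
Deposited normalised counts (log axis) of the 10 genes in every shoot library at 0 to 24 h, drawn as for roots. The t-chalcone libraries of RAB18 at 24 h sit between 87.0 and 90.7 units, and the open circle of HB-12 at 12 h stands at 1863 units.

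Counted together in roots, 2 members were higher and 1 lower of 9 tested at 1 h, where 4.61% of all genes were called, 1.57% higher and 3.04% lower. At 3 h 6 were higher and 0 lower, where 13.6% of all genes were called, 10.3% higher and 3.26% lower. At 6 h none was called (0.449% of all genes) and at 12 h none (0.0302%), with 2 members at an unadjusted p under 0.05 at each of these times. Of all 19835 genes 929 were under 0.05 at 6 h and 1525 at 12 h. By edgeR 1 member, ABF1, was called at each of these times, lower at 6 h and higher at 12 h, and by DESeq2 none. DESeq2 gave no adjusted p for RAB18 at 6 h, nor for NCED3, HAI1, RAB18 and HB-12 at 12 h, so it decided nothing on these. At 24 h 1 was higher and 2 were lower, where 1.91% of all genes were called, 0.0605% higher and 1.85% lower. The median difference over the members was 0.50 at 1 h and 0.88 at 3 h, against -0.01 and 0.15 over all genes. At 24 h it was -0.49 against -0.15 over all genes. In 6 of the 10 members at 1 h, HAI2 with its few counts among them, all t-chalcone libraries were above all EtOH libraries (11.7% of all genes), and in 6 at 3 h (24.2%), while 4 had them all below at 24 h (26.5%). With TMM scaling the median of all genes moved to -0.01 at both 3 and 24 h, and the share of higher among called genes went from 76.0% to 56.7% at 3 h and from 3.17% to 26.8% at 24 h. Then 5 of the 6 members called at 3 h were still higher, all but HB-12 (0.60, limma adjusted p = 0.0907), and at 24 h ABF1 was called (0.99, 0.0130) but not HAI1 (-1.22, 0.0521) or HB-12 (-0.85, 0.0714). Without libraries under 0.5 M limma called 6 members at 1 h (8.81% of all genes), 7 at 3 h (8.54%) and 5 at 24 h (12.8%). At 3 h it called 3 when the shallow EtOH library alone was left out, namely CYP707A1, HAI1 and ABI1, and 2 with array weights or with only the 2 groups compared, CYP707A1 and HAI1.

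In shoots 0 of 10 members were called at 1, 3 and 6 h by limma, with 1 member at an unadjusted p under 0.05 at each time, where 0.0481%, 0.035% and 1.55% of all genes were called. Of all 22884 genes 452, 1111 and 2061 had an unadjusted p under 0.05 at these times. DESeq2 called none at 1 and 3 h and NCED3 lower at 6 h. By edgeR none was called at 1 and 3 h, and NCED3 and ABF1 were lower at 6 h. At 12 h 1 was lower and 0 higher (0.76% of all genes called, 0.245% lower), and at 24 h 2 were higher (1.14% of all genes called, 0.533% higher). With TMM scaling the same 2 were higher at 24 h, whereas edgeR, array weights or a fit without libraries with an S number called neither, and DESeq2 or only the 2 groups called RAB18. With TMM scaling the share of higher among called genes went from 46.6% to 59.6%. Medians over the members ran from -0.38 at 12 h to 0.11 at 1 h and at 3 h, against -0.06 to 0.09 over all genes. At 6 h 4 members lay with every t-chalcone library below every EtOH library (14.4% of all genes did), and at 24 h 4 lay above (5.41%).

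**Figure D3:**
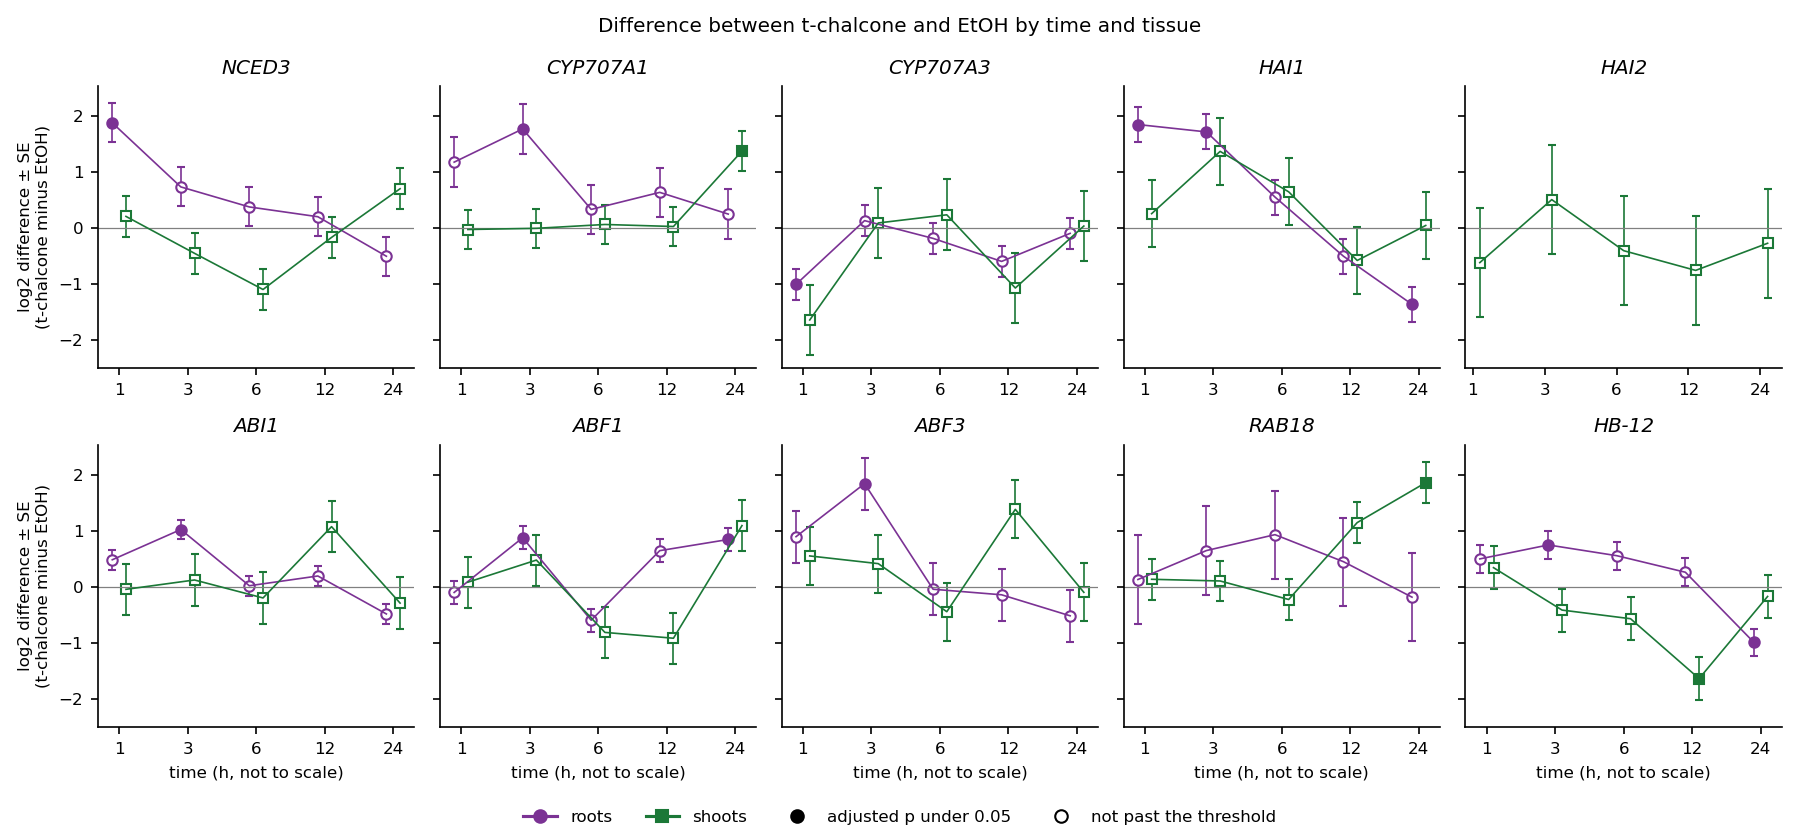
Log2 difference between t-chalcone and EtOH (± SE, limma) of each gene at 1 to 24 h, in roots (circles) and shoots (squares), with filled symbols where the adjusted p is under 0.05. HAI1 in roots goes from 1.85 at 1 h to -1.37 at 24 h, and HB-12 in shoots reaches -1.64 at 12 h.

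The effect differed between times for 5 of 9 members in roots, namely HAI1, ABF1, ABI1, HB-12 and NCED3 (limma adjusted p = 1.33e-05, 0.00155, 0.00155, 0.00603 and 0.0171), where 8.21% of all genes were called. In shoots it did for 0 of 10 by limma, the lowest adjusted p being 0.055 for RAB18, where 2.68% of all genes were called. Between tissues it differed for HB-12 and NCED3 among the 10, where 1.75% of all genes were called.

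**Figure D4:**
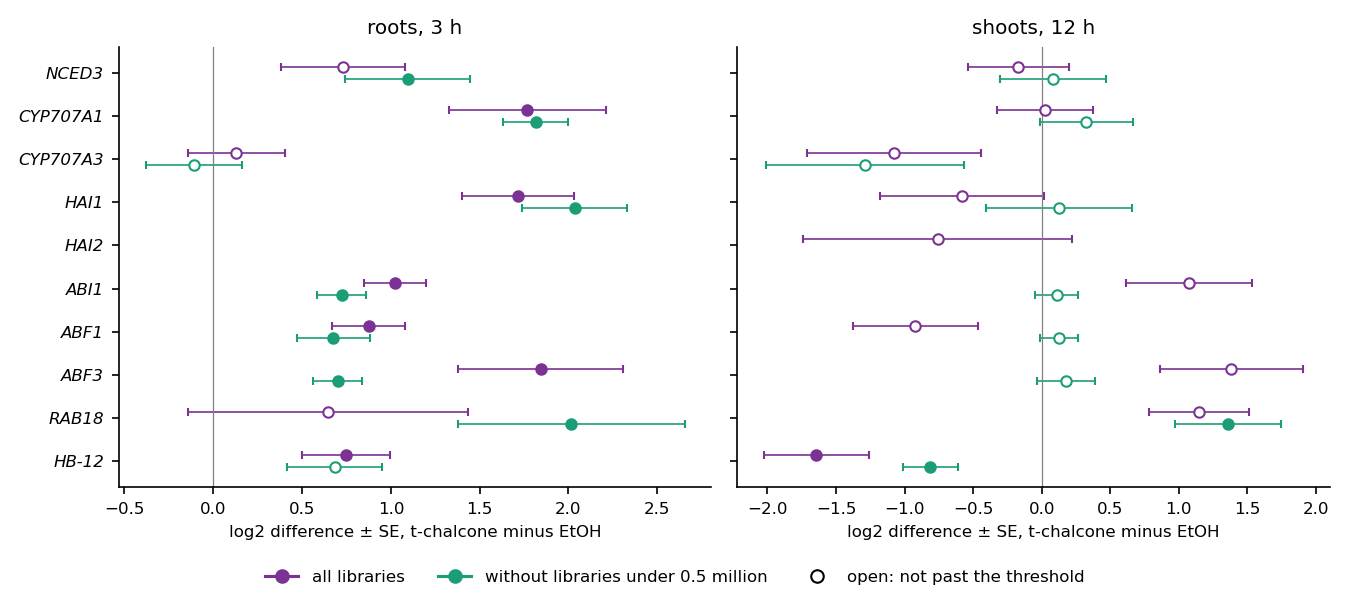
Log2 difference between t-chalcone and EtOH (± SE, limma) of each gene in roots at 3 h and in shoots at 12 h, with all libraries and without those under 0.5 M, open symbols not past the threshold. In roots ABF3 moves from 1.84 to 0.70 and RAB18 from 0.65 to 2.01, and in shoots HB-12 moves from -1.64 to -0.81.

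The rest of the pathway was described with 64 further genes, of which 58 were in the table and 48 were tested in roots. At 1 h in roots 2 were higher and 1 lower of 48, where 4.61% of all genes were called. ABCG40, an importer of ABA, was at 17.0 ± 4.93 units in EtOH and 141 ± 48.1 in t-chalcone, a difference of 2.97 (limma adjusted p = 4.46e-06). RD22, a drought-response target, was higher by 1.02 (limma adjusted p = 0.0309), and PYR1, an ABA receptor, fell by 0.86 (limma adjusted p = 0.0184). RD22 was not called without EtOH replicate 1 or 2 (adjusted p = 0.204 and 0.0742) or t-chalcone replicate 1 or 2 (0.0680 and 0.215). PYR1 was not called without EtOH replicate 1 or 3 (0.0758 and 0.0696) or t-chalcone replicate 2 or 3 (0.140 and 0.0572).

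At 3 h in roots 20 of the 48 were higher and 0 lower, where 10.3% of all genes were higher and 3.26% lower. The median was 0.51 against 0.15 over all genes. By role, 3 of 7 synthesis genes were higher, 1 of 2 in breakdown and conjugation, 2 of 3 transporters, 0 of 9 receptors, 3 of 5 phosphatases, 2 of 3 SnRK2 kinases, 1 of 5 bZIP and B3 factors and 8 of 14 response targets. LTI30, a dehydrin, went from 1088 ± 162 to 3331 ± 195 units (1.62, limma adjusted p = 5.02e-05). KIN1, a cold- and ABA-response gene, was higher by 1.64 (limma adjusted p = 0.00533) and OST1, the guard-cell SnRK2 kinase, by 1.24 (limma adjusted p = 0.00407). RD29A, a drought- and cold-response gene, was higher by 1.32 (limma adjusted p = 0.0296), ABCG40 by 1.31 (0.0262) and ADH1, an alcohol dehydrogenase, by 1.22 (0.0423). The shallow EtOH library entered here too. Without it alone the count was 6 of 48, against 8, 10 and 10 without t-chalcone replicate 1, 2 or 3. Without the shallow library the differences were 0.76 for KIN1 (adjusted p = 0.0741), 0.68 for OST1 (0.0698), 0.71 for RD29A (0.391) and 1.03 for ADH1 (0.239), and none was called. Without all libraries under 0.5 M it was 15, KIN1, OST1 and ADH1 among them, where 8.54% of all genes were called. RD29A was also not called without t-chalcone replicate 1, 2 or 3 (adjusted p = 0.0818, 0.107 and 0.0552), ABCG40 without EtOH replicate 2 or t-chalcone replicate 1 or 2 (0.0877, 0.119 and 0.0810), and ADH1 without EtOH replicate 2 or t-chalcone replicate 1, 2 or 3 (0.0772, 0.0941, 0.125 and 0.0922). LTI30 was called in each fit that left out 1 library.

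**Figure D5:**
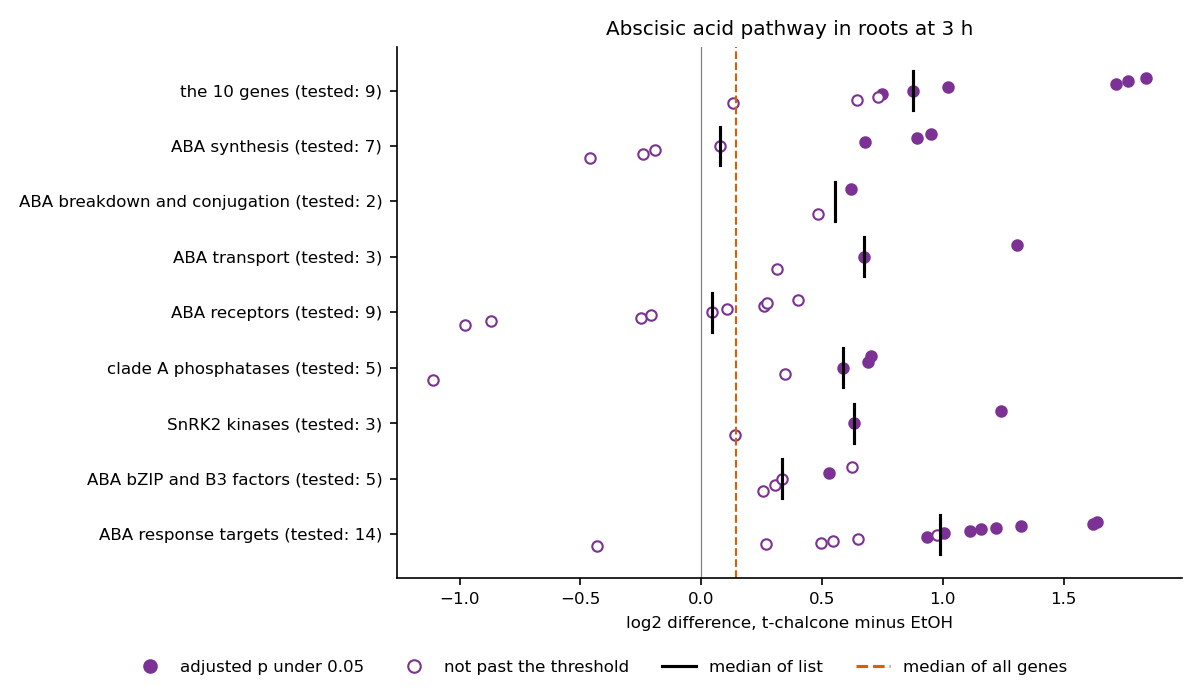
Log2 difference between t-chalcone and EtOH in roots at 3 h for the 10 genes and for 8 lists of other ABA pathway genes, filled where the adjusted p is under 0.05, with black bars for list medians and a dashed line for the median of all genes (0.15). Receptors have 0 filled points of 9, and response targets have 8 of 14.

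At 6, 12 and 24 h in roots limma called no other pathway gene, with 0, 6 and 15 of 48 at an unadjusted p under 0.05. Of all 19835 genes 929, 1525 and 3452 were under 0.05 at these times. There edgeR called 0, 4 and 0, DESeq2 0, 1 and 0, and limma without libraries under 0.5 M 0, 2 and 11. In that last fit 12.8% of all genes were called at 24 h. Shares of all genes in the other alternative fits, for roots here and for shoots below, are not given. Those counts therefore cannot be read as particular to the pathway. In shoots ADH1 was lower at 1 h (-2.02, limma adjusted p = 0.0426), from 524 ± 412 to 105 ± 11.9 units, a call lost in 5 of the 6 fits that left out 1 library (adjusted p = 0.105 to 0.723). At 3 and 12 h in shoots 0 of 58 were called by limma, with 6 and 19 at an unadjusted p under 0.05. Of all 22884 genes 1111 and 6853 were under 0.05 at these times. By edgeR 2 pathway genes were called at each time. DESeq2 called 1 and 2. At 6 h ABA1, the epoxidase of ABA synthesis, was lower at 286 ± 55.0 units in t-chalcone against 1082 ± 303 in EtOH (-1.90, limma adjusted p = 0.00102), in every fit that left out 1 library. RD29A was lower at 6 h too (-1.30, limma adjusted p = 0.0312), a call lost in 5 of 6 such fits (adjusted p = 0.0595 to 0.245). At 24 h LTI30 was higher by 1.68 (limma adjusted p = 0.0407), with overlapping groups, and was not called without EtOH replicate 2 or 3 (adjusted p = 0.236 and 0.123) or t-chalcone replicate 1 or 3 (0.178 and 0.100).

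Genes whose group means followed a member most closely were sought among 7307 others, over the 22 groups. Only genes with a symbol and a mean of at least 50 units were searched. The closest to HAI1 was HB-7 (r = 0.79), to CYP707A3 UCP5 (0.93), to ABI1 CKS (0.94), to ABF1 WCRKC1 (0.92), to ABF3 A/N-InvB (0.86), to RAB18 ESL1 (0.85) and to HB-12 GALS3 (0.87). NCED3 came closest to ZF2 (0.71), CYP707A1 to PAHX (0.76) and HAI2 to SULTR3;1 (0.75). HAI2 was at the floor in 15 root and 14 shoot libraries, so its r rests partly on floors. These are orders of likeness over groups that share tissue and time.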

How the data were processed

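RNA sequencing libraries of shoots and roots were deposited as 1 table of 22884 genes and 72 columns. Its signal values are normalised gene counts deposited by the authors. The submitters' processing notes name DESeq2 1.14.1 and the build TAIR10. For the aligner, counter and strand setting nothing was given in the sources used here, and the libraries were made with a TruSeq kit per the labels. Every value (100.0% per column) was a whole multiple, within 0.01, of the lowest in its column, and these multiples served in alternatives. They may differ from read counts by an offset or a factor. The 6 untreated columns at 0 h equalled those of EtOH at 0 h, leaving 66 libraries in 22 groups. Replicates were numbered in accession order, and no pairing follows.

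Tests used limma 3.58.1 in R 4.3.3 with a mean-variance trend on log2(value + 1), 1 mean per group over the 33 libraries of a tissue. Genes reaching 10 in 3 or more libraries were kept, 19835 in roots and 22884 in shoots, and two-sided p-values were adjusted by Benjamini and Hochberg over them. In shoots this filter removed no gene, since 3 shallow libraries have floors above 10. Effects between tissues came from 1 fit of all 66 libraries. A pseudocount of 1 understates changes of low genes. Alternatives were a pseudocount of 8, no filter, TMM scaling, array weights, a batch term, fits without shallow libraries, without libraries that carry an S number, with only the 2 groups compared or without 1 library, and edgeR 4.0.16 or DESeq2 1.42.0 on the recovered whole numbers. The test code was tested on simulated data. Promoters were read with Python 3.11.15 from TAIR10.1.

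All 10 members are named. Of the other pathway genes, at most 6 per comparison are named, those with the largest change among the called with a mean of at least 50 units in either group. Patterns like a member's were ranked by Pearson's r over 22 group means. The members, the gene lists and the tests were chosen with earlier results of these data known. Counting intervals are not given, because the recovered numbers may differ from reads.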

Additional observations from a re-analysis of the deposited data

Results flagged for a closer look

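The t-chalcone effect differed between roots and shoots for 2 members, by limma's F test of the 5 differences between tissues. For HB-12 the adjusted p was 0.0134, with an effect of 0.26 in roots and -1.64 in shoots at 12 h, and of -0.995 and -0.17 at 24 h. The -1.64 became -0.81 without libraries under 0.5 M. For NCED3 the adjusted p of the F test was 0.0225, with an effect of 1.88 in roots and 0.21 in shoots at 1 h, and of 0.37 and -1.10 at 6 h. Taken 1 time at a time, the difference between tissues passed at no time for either gene. The limma adjusted p was 0.0677 at 12 h and 0.486 at 24 h for HB-12. For NCED3 it was 0.364 at 1 h and 0.501 at 6 h.

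The effect differed between the 5 times in roots for 5 members. HAI1 had an adjusted p of 1.33e-05, with effects from 1.85 at 1 h to -1.37 at 24 h. ABF1 and ABI1 each had an adjusted p of 0.00155. The effect on ABF1 was higher at 3 h (0.88) and 24 h (0.84) than at 1 h (-0.10) or 6 h (-0.60), and that on ABI1 was 1.02 at 3 h and -0.49 at 24 h. HB-12 had an adjusted p of 0.00603, with 0.75 at 3 h and -0.995 at 24 h, and NCED3 one of 0.0171, with 1.88 at 1 h and -0.51 at 24 h. The 24 h values rest on t-chalcone libraries that all carry an S number and have lower totals than the EtOH libraries at 24 h. With the S number as a batch term 3 of the 5 were called, namely HAI1, ABI1 and ABF1. The parts of the S number and of library depth in these results were not tested.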

How the results depend on the processing

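Another pseudocount or no filter changed no count of called members by over 1.5 times. In shoots the fit without a filter could not differ from the main fit, since the filter removed no gene. Libraries under 0.5 M cannot show levels below floors of 17.4 to 40.5 units. Without libraries under 0.5 M the share of all genes called in roots moved from 4.61% to 8.81% at 1 h. It moved from 13.6% to 8.54% at 3 h and from 1.91% to 12.8% at 24 h. Shares under most other alternatives are not given, so the counts below cannot be read as particular to the members. In roots the count of members at 1 h moved from 3 to 7 with array weights or edgeR and to 6 without libraries under 0.5 M or with DESeq2. At 3 h it moved from 6 to 2 with array weights or with only the 2 groups compared, at 6 h from 0 to 2 with array weights and 1 with edgeR, and at 12 h from 0 to 1 with edgeR. At 24 h it moved from 3 to 5 with array weights or without shallow libraries, to 1 with TMM scaling or DESeq2, and to 0 with the batch term. DESeq2 gave no adjusted p at 24 h in roots for NCED3, HAI1, RAB18 or HB-12, which counted as not called. Its differences there were -1.23 for HAI1 and -0.92 for HB-12. In shoots the count of 0 became 1 at 1 h and 2 at 3 h with array weights, and 1 at 3 h without shallow libraries. At 6 h it became 4 with array weights, 3 without shallow libraries or with only the 2 groups, 2 with edgeR and 1 with DESeq2. At 12 h the count of 1 became 2 with array weights, edgeR, DESeq2 or no shallow libraries, and 0 with only the 2 groups or without libraries with an S number. At 24 h the count of 2 became 0 with array weights, edgeR or no S-number libraries, and 1 with DESeq2 or only the 2 groups. Members whose effect differed between times moved in roots from 5 to 8 with array weights and 3 with the batch term, and in shoots from 0 to 1 with TMM scaling, 5 with array weights, 4 without shallow libraries or with edgeR and 2 with DESeq2. Between tissues 2 became 6 with array weights or without shallow libraries and 4 with edgeR. The weights of the arrays did not reach convergence. The causes were not tested.

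Leaving out 1 library of the groups compared gave 2 to 3 called members in roots at 1 h, 3 to 6 at 3 h, 0 at 6 and 12 h, and 0 to 2 at 24 h. In shoots it gave 0 at 1, 3 and 6 h, 0 to 5 at 12 h and 0 to 2 at 24 h. For differences between times it gave 4 to 6 in roots and 0 to 3 in shoots, and between tissues 2 to 3. Over time in EtOH it gave 7 to 8 in roots and 9 to 10 in shoots, and between tissues in EtOH 6 to 7. No member reversed direction past the threshold in any of these fits. Libraries of other groups, which also enter the spread, were not left out singly, so the ranges do not cover them. Fits without S-number libraries gave no value for roots at 24 h, for differences between times in roots or for differences between tissues, since no t-chalcone library of roots at 24 h was left. Counts of other pathway genes called, over the alternatives that did not leave out a single library, were 3 to 21 in roots at 1 h (3 as reported), 2 to 20 at 3 h (20), 0 to 2 at 6 h (0), 0 to 4 at 12 h (0) and 0 to 13 at 24 h (0). In shoots they were 0 to 2 at 1 h (1 as reported), 0 to 26 at 3 h (0), 2 to 18 at 6 h (2), 0 to 17 at 12 h (0) and 0 to 9 at 24 h (1). Array weights gave the highest count at 1 and 24 h in roots and at 3, 6 and 12 h in shoots, and one of the 2 lowest at 3 h in roots. No paired analysis was possible because replicate numbers were given in accession order.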
